A study of Mus musculus with 2 samples.

Results

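The 7 genes described here encode the core of the MHC class II pathway: the peptide-binding chains H2-Aa, H2-Ab1 and H2-Eb1, the invariant chain Cd74, the peptide-exchange chains H2-DMa and H2-DMb1, and the transactivator Ciita. They were chosen by symbol, and all 7 were found among the 28523 genes of the deposited table for all cells and among the 21544 genes of the table for neutrophils. The study profiled liver metastases by single-cell RNA sequencing on the BD Rhapsody microwell system. Female BALB/c mice of 6 to 8 weeks received cells of the mouse triple-negative breast cancer line 4T1 by injection into the spleen, which was then taken out in both groups. In the shZdhhc17 group the injected cells carried a lentiviral hairpin that silences Zdhhc17, a palmitoyltransferase gene. In the shSCR group they carried a scrambled hairpin, and both lines had been selected with puromycin. Metastases were collected on day 14, and cells of 3 mice were pooled into 1 library per group, so there is no replicate and no test between the groups.

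The values used here are a flag per gene for the 1000 most variable genes, the authors' marker list of neutrophil clusters, and each cell's annotation and depth. Levels of the 7 genes per cell type and library were not analysed here, and neither were the defining markers of the annotated types. The shZdhhc17 library held 21511 cells and the shSCR library 22860, with at least 500 UMIs (molecule counts) in every cell. The libraries shared 609 cell identifiers after the library prefix was removed.

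MHC class II molecules are pairs of an alpha and a beta chain that show peptides of ingested proteins to CD4+ T cells. The invariant chain fills the groove of a new pair until endosomal proteases degrade it, and H2-DM then exchanges its last fragment for other peptides. Dendritic cells, B cells and macrophages are the usual carriers, and in the liver Kupffer cells, the resident macrophages of the sinusoids, are among them. CIITA binds no DNA itself and is recruited to a shared promoter module, in which the X box is bound by the RFX complex and the Y box, an inverted CCAAT, by NF-Y.

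The promoter module is shown first, because it is a feature that the choice of genes did not use and that some of them share. RefSeq promoter windows of 300 bases (250 before and 50 after the start site, GRCm38.p6) were found for 4 of the 7 genes, H2-Aa, H2-Eb1, H2-DMa and H2-DMb1. In the stretches below, 5′ to 3′ along the gene's strand, the capitals mark an X box core (CTNGNAAC) and the inverted CCAAT of the Y box (ATTGG). H2-Ob, a class II gene outside the 7, is shown because it held both. It was the only 1 of 4 other class II genes with a window that did so at a like spacing.
H2-Aa: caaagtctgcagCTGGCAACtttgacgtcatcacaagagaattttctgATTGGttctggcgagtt
H2-Eb1: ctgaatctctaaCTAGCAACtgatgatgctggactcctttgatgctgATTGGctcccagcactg
H2-DMb1: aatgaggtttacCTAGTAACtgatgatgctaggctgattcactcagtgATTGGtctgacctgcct
H2-Ob: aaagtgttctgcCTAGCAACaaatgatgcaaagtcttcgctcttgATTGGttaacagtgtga

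The stretches lie on GRCm38 at chr17:34287855-34287919 (minus strand, H2-Aa), chr17:34305761-34305824 (plus, H2-Eb1), chr17:34153082-34153146 (plus, H2-DMb1) and chr17:34238803-34238864 (plus, H2-Ob). The X box core began 84 bases before the RefSeq start site in H2-Aa, 94 in H2-Eb1, 97 in H2-DMb1 and 90 in H2-Ob. From the start of the X box core to the start of ATTGG there were 36 bases in H2-Aa and in H2-DMb1, 35 in H2-Eb1 and 33 in H2-Ob. The spacing thus varied by no more than 3 bases among these 4 genes. The bases directly after the X box core were the same in 1 pair, since tgatgatgct follows it in both H2-Eb1 and H2-DMb1. Counted as an unbroken run from the first base after the core, H2-Aa shared 1 base with each of these. By the same count H2-Ob shared 0 with each of the others. Slightly further on, H2-Ob does hold atgatgc, at the same distance from the core as in H2-Eb1 and H2-DMb1.

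CTNGNAAC followed by ATTGG 10 to 60 bases downstream, on either strand, was present in 3 of the 4 member promoters and in 0.517% of all 32851 promoter windows. Of 4 other class II genes with a window, 1 had it, H2-Ob. This motif was written down after the member promoters had been read. CCAAT, searched on both strands, was in all 4 and in 37.4% of all windows. The planned X box core, CCTNGNNAC, on both strands, was found together with CCAAT in 1 of the 4, H2-DMb1, and in 5.67% of all windows. The same pair was in 1 of the 4 other class II genes and in 2 of 7 class I presentation genes with a window. A CCTNGNNAC match can overlap a CTNGNAAC match, as it does in H2-DMb1. H2-DMa has 2 windows, and only the one that starts at 34125268 held CCAAT, 198 bases before its start site. A match describes letters in the reference and is not a binding site.

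The peptide-binding chains varied strongly over all cells by the authors' ranking. H2-Aa and H2-Ab1, the alpha and beta chains of I-A, and H2-Eb1, the beta chain of I-E, were all among the 1000 most variable genes over all cells. Cd74, whose product chaperones every new class II pair, carried the same flag. H2-DMa and H2-DMb1, the chains of the peptide-exchange factor, did not carry it, and neither did Ciita, the transactivator. In all, 4 of 7 members were flagged, a share of 57.1% against 3.51% of all genes listed. The flag is a yes or no per gene over both libraries together, so it gives neither a level nor the cell types in which a gene was high.

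**Figure D1:**
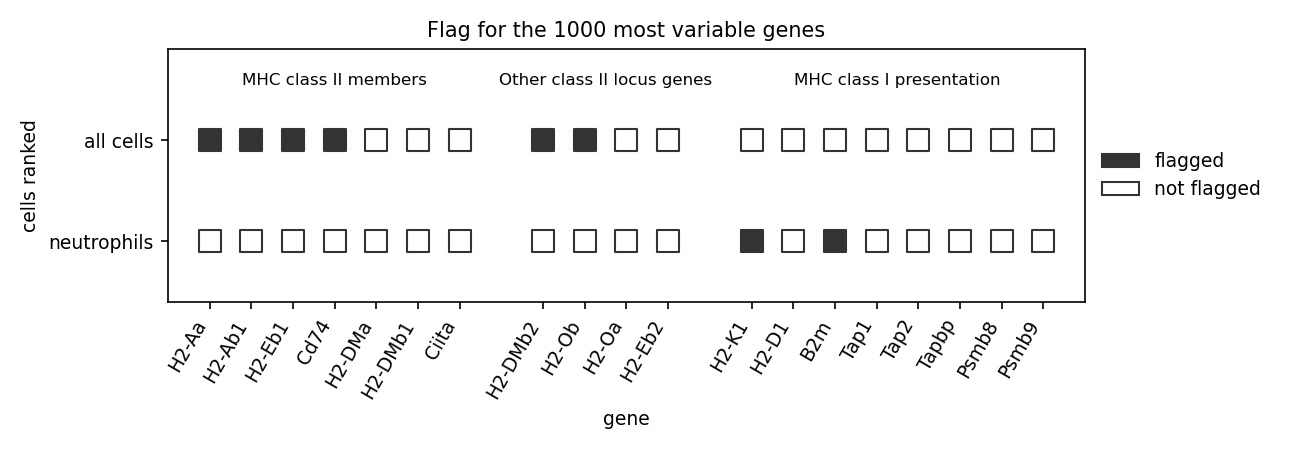
Flags for the 1000 most variable genes, over all cells (upper row) and within neutrophils (lower row). Filled squares are flagged genes. Over all cells these were 4 of 7 class II members and 0 of 8 class I presentation genes, beside 3.51% of all genes. In neutrophils they were 0 of 7 and 2 of 8, beside 4.64% of the listed genes.

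Within neutrophils, where all 7 members were listed, 0 of 7 were among the 1000 most variable genes, against 4.64% of the listed genes. With so few members, 0 is near that share and sets them apart from no other genes. Of 8 class I presentation genes, 0 were flagged over all cells, which is likewise near the 3.51% of all genes, and 2 in neutrophils, H2-K1, a class I heavy chain, and B2m, the light chain of class I molecules. The other 6, H2-D1, Tap1, Tap2, Tapbp, Psmb8 and Psmb9, were flagged in neither set.

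No member was among the markers of the 9 neutrophil clusters in the authors' deposited table, which lists 20 genes per cluster and 180 in all, or 0.835% of the genes listed for neutrophils. The fold changes listed reached down to different values in different clusters. In the authors' deposited table, the lowest log2 fold change against all other neutrophils was 2.76 in Early-Stage 1, 1.92 in Hypoxia/Angiogenesis and 0.54 in Migration 1. The lowest values in the other 6 clusters lay between these, from 0.63 in NETosis 2 to 1.31 in Early-Stage 2. A class II gene with a smaller difference between clusters could be present without being listed.

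The members fall on 3 chromosomes (GENCODE M21, GRCm38), and all 7 are protein-coding. H2-DMa (34119541 to 34139101, plus strand), H2-DMb1 (34153072 to 34160230, plus), H2-Ab1 (34257689 to 34269419, plus), H2-Aa (34282744 to 34287823, minus) and H2-Eb1 (34305867 to 34316674, plus) lie on chromosome 17. Cd74 is on chromosome 18 (60803848 to 60812652, plus) and Ciita on chromosome 16 (10480059 to 10528418, plus). The flagged members are therefore not confined to the class II segment, since Cd74 lies outside it.

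On chromosome 17, the segment from H2-Oa to H2-Eb2 spans 249.1 kb and holds 17 genes of the deposited table. Its 9 class II genes had 5 flagged for variability over all cells, namely H2-DMb2, H2-Ob, H2-Ab1, H2-Aa and H2-Eb1, against 3.51% of all genes. Between them lie 8 genes of other kinds, including the class I genes Psmb8, Psmb9, Tap1 and Tap2 and the chromatin reader gene Brd2, and 0 of the 8 were flagged, which is near the share of all genes. In neutrophils 0 of the 17 were flagged, against 4.64% of the listed genes. The segment was chosen after the flags were seen.

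**Figure D2:**
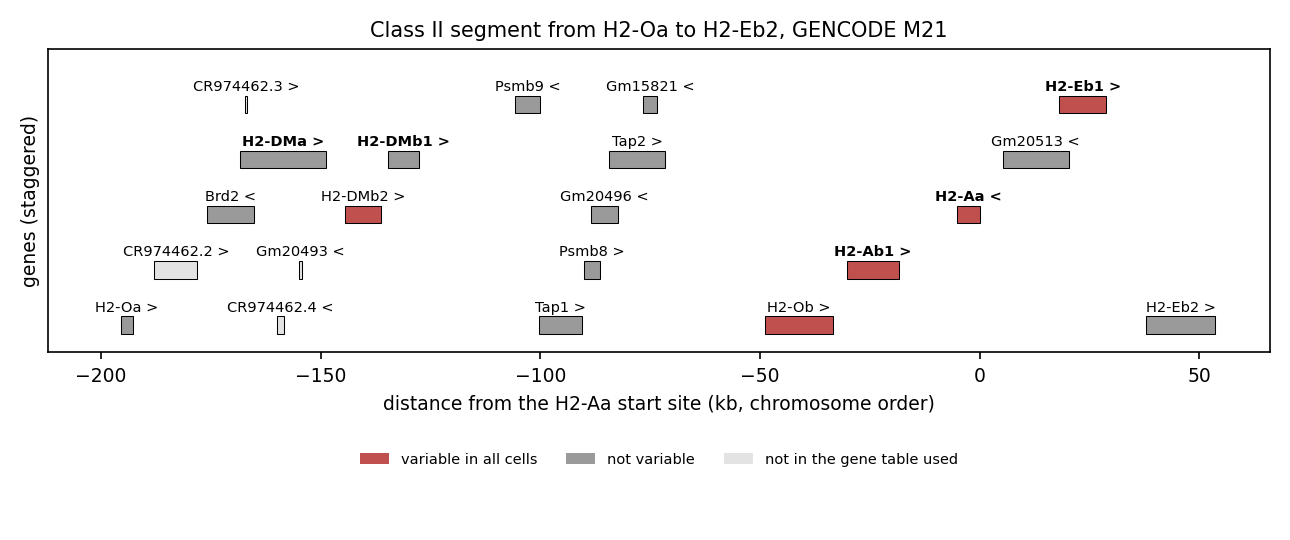
Genes of the class II segment on chromosome 17, placed by distance in kb from the H2-Aa start site, with arrows for the strand and members in bold. The 5 red genes, H2-DMb2, H2-Ob, H2-Ab1, H2-Aa and H2-Eb1, were among the 1000 most variable over all cells, a flag that 3.51% of all genes carried.

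The H2-DM chains need care, because H2-DMb1 has a close copy. Of the 1374 distinct 31-base words in the longest H2-DMb1 transcript, 37.6% also occur in transcripts of H2-DMb2, which was flagged as variable while H2-DMb1 was not. How reads were divided between them is not given in the sources used here, so these flags may not describe separate genes. The other members share far fewer words with any other gene, with 0% for H2-Aa and H2-DMa, 0.452% for Ciita, 0.592% for H2-Ab1, 1.28% for H2-Eb1 and 1.74% for Cd74. Words were counted over whole transcripts, and where the reads fell along them was not examined, so these are not shares of ambiguous reads. H2-Eb1 overlaps the antisense gene Gm20513, which was listed and not flagged. H2-DMa overlaps Brd2 on the opposite strand, and Ciita overlaps Dexi.

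The promoter module can be set beside the flag for the 4 members with a window. It stood in H2-Aa and H2-Eb1, which were flagged, and in H2-DMb1, which was not, and it was not found in H2-DMa, which was not flagged either. Over all genes with a promoter window and a flag, 132 had the module and 8 of these, or 6.06%, were variable over all cells, against 3.87% of the 18827 genes with a window. The 8 were H2-Aa, H2-Eb1, H2-Ob, Elp4, Fer, Mxd1, Tmcc2 and Tmem108, so 3 of them are class II genes. The motif was written down after the promoters of H2-Aa and H2-Eb1 had been read. The 6.06% therefore includes genes the motif was drawn from, and a link between module and flag was not tested.

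Genes around the members in the pathway were flagged in part. Of the 4 further class II genes listed, H2-DMb2 and H2-Ob, the beta chain of the H2-DM inhibitor H2-O, were flagged over all cells, and H2-Oa and H2-Eb2 were not. Among 11 regulators of transcription, including the RFX and NF-Y subunits, 1 was flagged, Irf4, a factor of B cells and dendritic cells. Among 9 endosomal proteases and reductases, 2 were flagged: Ctss, the protease that trims the invariant chain, and Ctsb. Of the other lists, 0 of 7 interferon gamma axis genes, 1 of 6 costimulators (Cd274, which encodes PD-L1), 1 of 3 genes of class II turnover (Cd83) and 1 of 2 class II ligands on T cells (Cd4) were flagged. With the members, the pathway lists had 12 of 49 genes flagged, or 24.5%, and without them 8 of 42, or 19.05%, against the same 3.51% of all genes.

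In neutrophils 6 of 40 listed pathway genes outside the 7 members were flagged, or 15% against 4.64% of all listed. They were Nlrc5, the class I counterpart of Ciita, Irf1, a transcription factor of the interferon response, March1, a ubiquitin ligase that removes class II from the surface, Ctsb, Cd80 and Cd274. In the authors' deposited table, Cd274 was a marker of Hypoxia/Angiogenesis with a log2 fold change of 2.62, and it was detected in 41.9% of that cluster's cells. Ctsd, an endosomal protease gene, was a marker of Migration 1 in the authors' deposited table with a log2 fold change of 0.55. The members did not carry this flag.

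Genes that mark the usual class II carriers were flagged over all cells as well. All 4 B cell genes of the list (Cd79a, Cd79b, Ms4a1 and Pax5) and 4 of 9 dendritic cell genes (Xcr1, Clec9a, Ccr7 and Siglech) were among the most variable, against 3.51% of all genes. In neutrophils 0 of the 11 listed were flagged, near the 4.64% of all listed genes. Whether these genes and the class II chains were high in the same cells was not tested.

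Which cells could carry class II, and how deeply they were read, can be given per library. The annotated types counted here as carriers are conventional dendritic cells (cDCs), plasmacytoid dendritic cells (pDCs), B cells, monocytes, non-Kupffer macrophages and Kupffer cells. Endothelial cells and cells annotated as MDSCs (myeloid-derived suppressor cells) were not counted, and whether they carried class II was not tested. Together they came to 27.3% of all shZdhhc17 cells (exact 95% interval 26.7 to 27.9), against 28.3% of all shSCR cells (27.7 to 28.9). The ratio was 0.964 (0.935 to 0.993). The exact intervals overlapped, and they cover counting error only. Among cells other than cancer cells the direction turned, with 43.2% in shZdhhc17 and 38.8% in shSCR, a ratio of 1.11. Cancer cells themselves were 36.9% of the shZdhhc17 and 27.2% of the shSCR library.

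Within these 6 types, 3 had shares with separate intervals in the 2 libraries. Monocytes were 27.4% in shZdhhc17 (26.2 to 28.5) and 34.4% in shSCR (33.2 to 35.5), and Kupffer cells 12.8% (11.9 to 13.7) and 8.35% (7.69 to 9.05). B cells were 4.94% (4.40 to 5.53) in shZdhhc17 and 3.43% (3.00 to 3.91) in shSCR. For cDCs (4.08% in shZdhhc17 and 4.66% in shSCR), pDCs (0.784% and 0.835%) and non-Kupffer macrophages (50.03% and 48.4%) the intervals overlapped. The cDCs, pDCs and B cells together came to 575 cells in shZdhhc17 and 577 in shSCR, or 2.67% and 2.52% of all cells, a ratio of 1.06 (0.945 to 1.19). That ratio turned to 0.949 among cells with at least 1000 UMIs and to 0.920 at or above the lower quartile of UMIs. The pooled ratio of 1.06 merges opposite directions. The cDCs and pDCs alone came to 285 cells in shZdhhc17 and 355 in shSCR. Their share of all cells had a ratio of 0.853 (0.731 to 0.996, counting error only). B cells went the other way, with 290 cells in shZdhhc17 and 222 in shSCR.

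**Figure D3:**
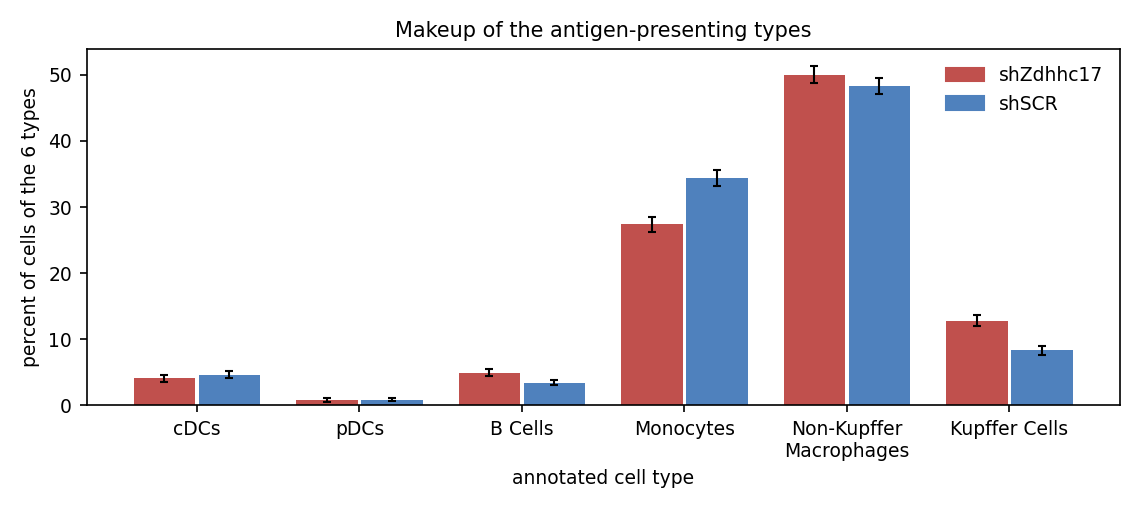
Share of each type among the cells of the 6 antigen-presenting types, in percent, per library, with exact 95% intervals that cover counting error only. Monocytes were lower in shZdhhc17 (27.4%) than in shSCR (34.4%), and Kupffer cells (12.8% and 8.35%) and B cells (4.94% and 3.43%) were higher.

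The depth sets how low a class II transcript could be seen. Among the 6 types B cells were the shallowest, with a median of 839.5 UMIs per cell in shZdhhc17 and 944.5 in shSCR. Kupffer cells were the deepest, with 8256 and 10071. The median of cDCs was 4761 UMIs in shZdhhc17, against 5700 in shSCR, and that of pDCs was 2764.5 against 3238.5. In each of the 6 types the median was lower in shZdhhc17. Summed over cells, cDCs held 1246472 UMIs in shZdhhc17 and 1819466 in shSCR, so a gene without a UMI there could still make up 0.000241% and 0.000165% of their UMIs (3 UMIs). For pDCs, with 46 cells in shZdhhc17 and 54 in shSCR, this limit was 0.00234% and 0.00156%.

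The 6 types contributed 22.5% of all UMIs of the shZdhhc17 library and 24.4% of those of shSCR. Cancer cells contributed 49.1% in shZdhhc17 and 37.6% in shSCR, and neutrophils 9.93% and 17.6%. Among the neutrophil clusters, the median depth per cell was 906 UMIs in shZdhhc17 and 1175 in shSCR for Inflammation, and 15679 and 21152 for Early-Stage 1, so the depth at which a rare transcript could be seen differed across the clusters.

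**Figure D4:**
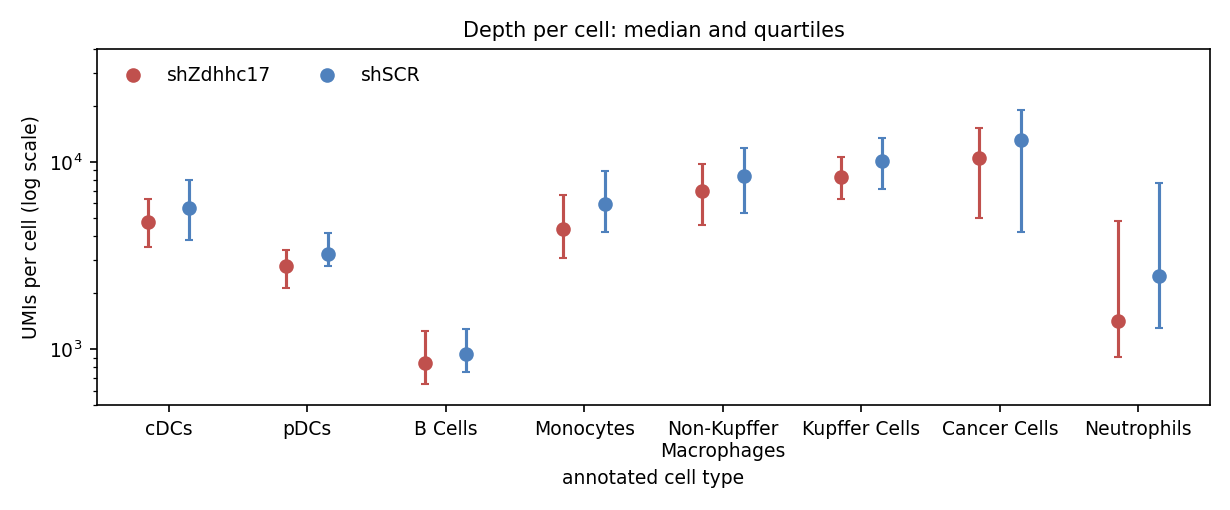
Median UMIs per cell (points) with lower and upper quartiles (bars) on a log axis, for the 6 antigen-presenting types, cancer cells and neutrophils in each library. B cells are shallowest (medians of 839.5 in shZdhhc17 and 944.5 in shSCR), and every median is lower in shZdhhc17.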

How the data were processed

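The authors ran the BD Rhapsody pipeline, corrected counts for ambient RNA and named cell types from marker expression on GRCm38 symbols, per the file headers. The submitters' processing notes name Seurat 4.1.0, but the pipeline's version and the correction tool are not stated in the sources used here. The deposited cell tables hold counts per cell (UMIs and detected genes) and the percent of mitochondrial UMIs. The authors' marker table holds log2 fold changes and the deposited fraction of cells with a gene above 0, printed as a percent. The mice are BALB/c and the reference is C57BL/6J, which carries other class II alleles, and any effect on the counts was not tested.

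Shares have exact (Clopper-Pearson) 95% intervals and ratios log-normal counting intervals (SciPy 1.17.1), checked on simulated data. Annotated doublets stayed in the denominators, and no doublet caller was run. Gene positions came from GENCODE M21, in which 27833 symbols matched, and promoters from RefSeq. All 7 members are named, and of the other lists the flagged genes and markers. The members and lists were chosen with earlier results of these data known. Some listed genes are not reported here. The planned comparison of member levels was not made, since no level per gene was used.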

Additional observations from a re-analysis of the deposited data

How the results depend on the processing

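With 1 library per group, no library could be left out, and differences between mice are unknown. No paired analysis was possible because each group has 1 library. The ratio of the 6 antigen-presenting types (0.964, shZdhhc17 over shSCR) turned to 1.11 among cells other than cancer cells, 1.17 among immune cells and 1.15 at low mitochondrial percent. It was 0.999 with at least 1000 UMIs. In alternatives added after seeing the data, it was 0.933 without non-Kupffer macrophages and 0.936 with MDSCs counted too. The ratio of cDCs, pDCs and B cells (1.06) turned to 0.949 with at least 1000 UMIs and 0.920 at or above the lower quartile of UMIs. It was 1.22 among cells other than cancer cells, 1.28 among immune cells and 1.38 at low mitochondrial percent. Cancer cells and neutrophils are part of the usual denominator, and their shares differ between the libraries. For the filters the cause was not tested. B cells had median UMIs under 1000 in both libraries, and the limits of 1000 and 1925 UMIs lie above those medians. The flagged share of members, 57.1% over all cells, was 0% in the neutrophil table, which ranks other cells, and protein-coding genes as background were flagged at 4.66%. In the 150 bases of the promoter window nearest the start site, CCAAT with CCTNGNNAC stayed in 1 of 4 member promoters. There it was in 1 of 4 other class II genes, 0 of 7 class I presentation genes and 1.79% of all windows.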
